A study of Mus musculus with 18 samples.

Results

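The genes described here are 10 imprinted genes, H19, Igf2, Meg3, Rian, Mirg, Dlk1, Peg3, Peg10, Plagl1 and Grb10, followed across 6 clonal lines of mouse oligodendrocyte progenitor cells (OPCs). They were taken by gene name from a deposited table of 38046 genes, and all 10 were found in it. The lines had been derived from primary neural stem cells. Clones D7, D3 and E8 were labelled control, and clones 3F, D6 and 7F were labelled null for Thap1, which encodes a zinc-finger transcription factor. Every line was sequenced at 3 stages: as OPCs at day 0, in growth medium with the mitogen PDGF-AA, and after 2 and 4 days (DIV2 and DIV4) in differentiation medium with T3 thyroid hormone. There was 1 library per line and stage, 18 in all, with 3 libraries for either genotype at every stage. The labels do not say how the null lines were made, whether any line came from the same animal as another, or what the control lines carry. A genotype is therefore represented by 3 clones, and the 3 libraries of a clone are the same line sampled at different stages.

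An imprinted gene is transcribed mainly from the maternal or mainly from the paternal copy. The choice is set in the germ line by DNA methylation at a control region and is copied through cell division, so a clonal line inherits the state of its founder cell. H19 and Igf2 share a control region, as do Dlk1, Meg3, Rian and Mirg, and in both domains the noncoding RNA genes are maternally expressed while Igf2 and Dlk1 are paternally expressed. In the brain, insulin-like growth factor (IGF) signals promote the survival and maturation of oligodendrocytes. Parental alleles were not distinguished in these data.

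The values are TPM, a unit of abundance that corrects for transcript length and scales every library to the same total. They were divided by a scaling factor per library, and the result is called rescaled TPM. The scaling matters most in OPCs: on deposited TPM the median tested gene was 1.503 higher in null than in control OPCs on the log2 scale, and 1.96 and 2.01 higher in control DIV2 and DIV4 than in control OPCs, against 0.02, -0.05 and 0.00 on rescaled TPM. A change is a difference of log2(rescaled TPM + 1), which understates the change of weakly expressed genes. A gene was tested where its mean over the 18 libraries was at least 1 rescaled TPM, and it is said to have changed where limma's Benjamini-Hochberg adjusted p over all 12479 tested genes was under 0.05. Of the 10 imprinted genes, 7 were tested. Meg3 passed narrowly, at a mean of 1.02, and Mirg (0.0586), Dlk1 (0.133) and Plagl1 (0.187) did not pass.

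Several libraries stood apart. In the control OPC libraries, 3 noncoding features took 64.8 to 88.0% of the deposited TPM and the scaling factors were 0.117 to 0.316, against 0.723 to 1.97 in the other 15 libraries. The same features took 34.8% in the null D6 OPC library, whose factor was 0.723, and at most 3.17% in the remaining libraries. The control D3 library labelled OPC had a summed level of 10 cell-cycle genes of 64.3 rescaled TPM, against 624 and 732 in the other control OPC libraries, and the highest oligodendrocyte marker sum of the OPC stage, 750.4. The control D7 library at DIV4 had the highest oligodendrocyte marker sum of all, 12648, and an astrocyte marker sum of 92.0. Summed over transcripts, Thap1 was at 5.25 to 11.96 in the null and 3.81 to 8.51 in the control libraries, and was higher in null without overlap in OPCs and at DIV2. Its transcript ENSMUST00000036807 was lower in null, at 0.190 to 0.760 against 1.81 to 4.34, and its transcript ENSMUST00000127536 was higher in null, at 4.79 to 11.19 against 0.738 to 3.99, both without overlap over all libraries. The labels do not say which part of Thap1 was altered, so its summed level does not check them. Null 3F had almost no RNA from 4 Y-linked genes, with sums of 0.477 to 1.12 against 13.9 to 99.6 in the other 5 lines. Of the 4, Kdm5d was also low in control D3 and E8, with clone means of 0.146 and 0.402 against 5.38 in control D7. Xist was at most 0.0824 in all 18 libraries.

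H19 (ENSMUSG00000000031), a noncoding RNA that carries the microRNA miR-675, lies on the minus strand at chr7:142575529-142578143 (GRCm38). Igf2 (ENSMUSG00000048583), the growth factor gene of the same domain, lies at chr7:142650766-142666816 on the same strand. Meg3 (ENSMUSG00000021268), Rian (ENSMUSG00000097451) and Mirg (ENSMUSG00000097391) are noncoding genes on the plus strand at chr12:109541001-109571726, chr12:109603940-109661716 and chr12:109729764-109749460, downstream of the protein-coding Dlk1 (ENSMUSG00000040856) at chr12:109452823-109463336. Grb10 (ENSMUSG00000020176), an adaptor that restrains insulin and IGF receptor signalling, is at chr11:11930508-12038683 on the minus strand. Peg3 (ENSMUSG00000002265; chr7:6703892-6730431, minus strand) encodes a zinc-finger protein, Peg10 (ENSMUSG00000092035; chr6:4747306-4760517) a protein derived from a retrotransposon, and Plagl1 (ENSMUSG00000019817; chr10:13060504-13131694) a zinc-finger transcription factor. Reads of Meg3 can be shared with other genes, which hold 11.4% of its 31-base words, and its values are less certain for that reason. Igf2 shares 63.1% with other annotated genes but 1.48% with genes in the deposited table.

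The sequences before some of the start sites whose transcripts separated the lines are shown here, 250 bases each, 5′ to 3′, from RefSeq on GRCm38.p6, with CG pairs, the bases that can be methylated, in capitals. Others, among them that of Rian, are not shown. Methylation was not measured. Deposited transcripts that begin within 200 bases of the start site were assigned to it, and these carried 59.2% of the Igf2 TPM, 52.1% of the Meg3 TPM and, for the 2 Grb10 start sites, 28.1% and 16.1%.
Igf2, chr7:142657497-142657746, minus strand: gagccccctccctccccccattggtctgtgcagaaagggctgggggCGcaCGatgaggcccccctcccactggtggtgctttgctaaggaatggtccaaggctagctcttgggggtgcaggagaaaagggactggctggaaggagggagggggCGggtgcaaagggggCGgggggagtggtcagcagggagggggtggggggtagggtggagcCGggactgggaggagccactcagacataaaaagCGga
Meg3, chr12:109540746-109540995, plus strand: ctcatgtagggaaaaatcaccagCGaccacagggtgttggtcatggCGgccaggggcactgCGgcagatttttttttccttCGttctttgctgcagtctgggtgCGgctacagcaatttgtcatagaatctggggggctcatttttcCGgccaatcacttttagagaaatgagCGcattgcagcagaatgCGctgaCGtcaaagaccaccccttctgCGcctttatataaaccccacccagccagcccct
Grb10 upstream start, chr11:12037421-12037670, minus strand: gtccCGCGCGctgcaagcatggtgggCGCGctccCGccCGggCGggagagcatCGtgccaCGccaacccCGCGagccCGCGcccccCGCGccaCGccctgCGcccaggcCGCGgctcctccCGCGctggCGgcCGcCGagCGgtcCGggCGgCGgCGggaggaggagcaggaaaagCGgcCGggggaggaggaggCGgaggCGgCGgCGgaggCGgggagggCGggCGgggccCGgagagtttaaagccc
Grb10 downstream start, chr11:12027972-12028221, minus strand: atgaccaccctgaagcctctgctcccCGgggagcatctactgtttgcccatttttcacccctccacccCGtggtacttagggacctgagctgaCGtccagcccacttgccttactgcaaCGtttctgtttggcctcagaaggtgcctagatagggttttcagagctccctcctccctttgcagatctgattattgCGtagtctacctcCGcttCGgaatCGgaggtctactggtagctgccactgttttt
Together with the first 50 transcribed bases, the Grb10 upstream window held 45 CG pairs, more than 98.1% of 32851 promoter windows of the same length, the Meg3 window 13, the Grb10 downstream window 9 and the Igf2 window 7, which is the median of all windows. The windows were searched on both strands for TNNGGCA, the core recognised by THAP1, and for TGCCGC, the core recognised by ZFP57 at methylated imprinting control regions. The Meg3 window held 1 match to each, TGCGGCA and the GCGGCA within it, so the matches overlap, starting 191 and 190 bases before the start site. The Grb10 downstream window held 1 match to TNNGGCA, and the Grb10 upstream window held 1 match to TGCCGC, after the start site. Matches are common, with TNNGGCA in 40.0% and TGCCGC in 11.6% of all windows, and a match does not show binding. The Igf2 window shown here held neither. The window of another Igf2 start site, with 3.69% of the Igf2 TPM, held 1 match to each. These were TTCGGCA, 36 bases before the start site, and GCGGCA, after it.

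The mature forms of the H19 microRNA, from the same RefSeq build, are shown with the seed (bases 2 to 8) in capitals, because H19 was the most abundant of the 10 genes and this is its known processed product.
miR-675-5p: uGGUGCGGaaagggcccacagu
miR-675-3p: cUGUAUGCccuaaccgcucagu
The miR-675 hairpin gene was listed at 0 in all 18 libraries, which were made from total RNA and not from size-selected small RNA. Of the hairpin genes inside these loci that were in the deposited table, only Mir483 in Igf2 (2 libraries, at most 2.96 rescaled TPM) and Mir341 in Rian (1 library, 3.15) were above 0 in any library.

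**Figure D1:**
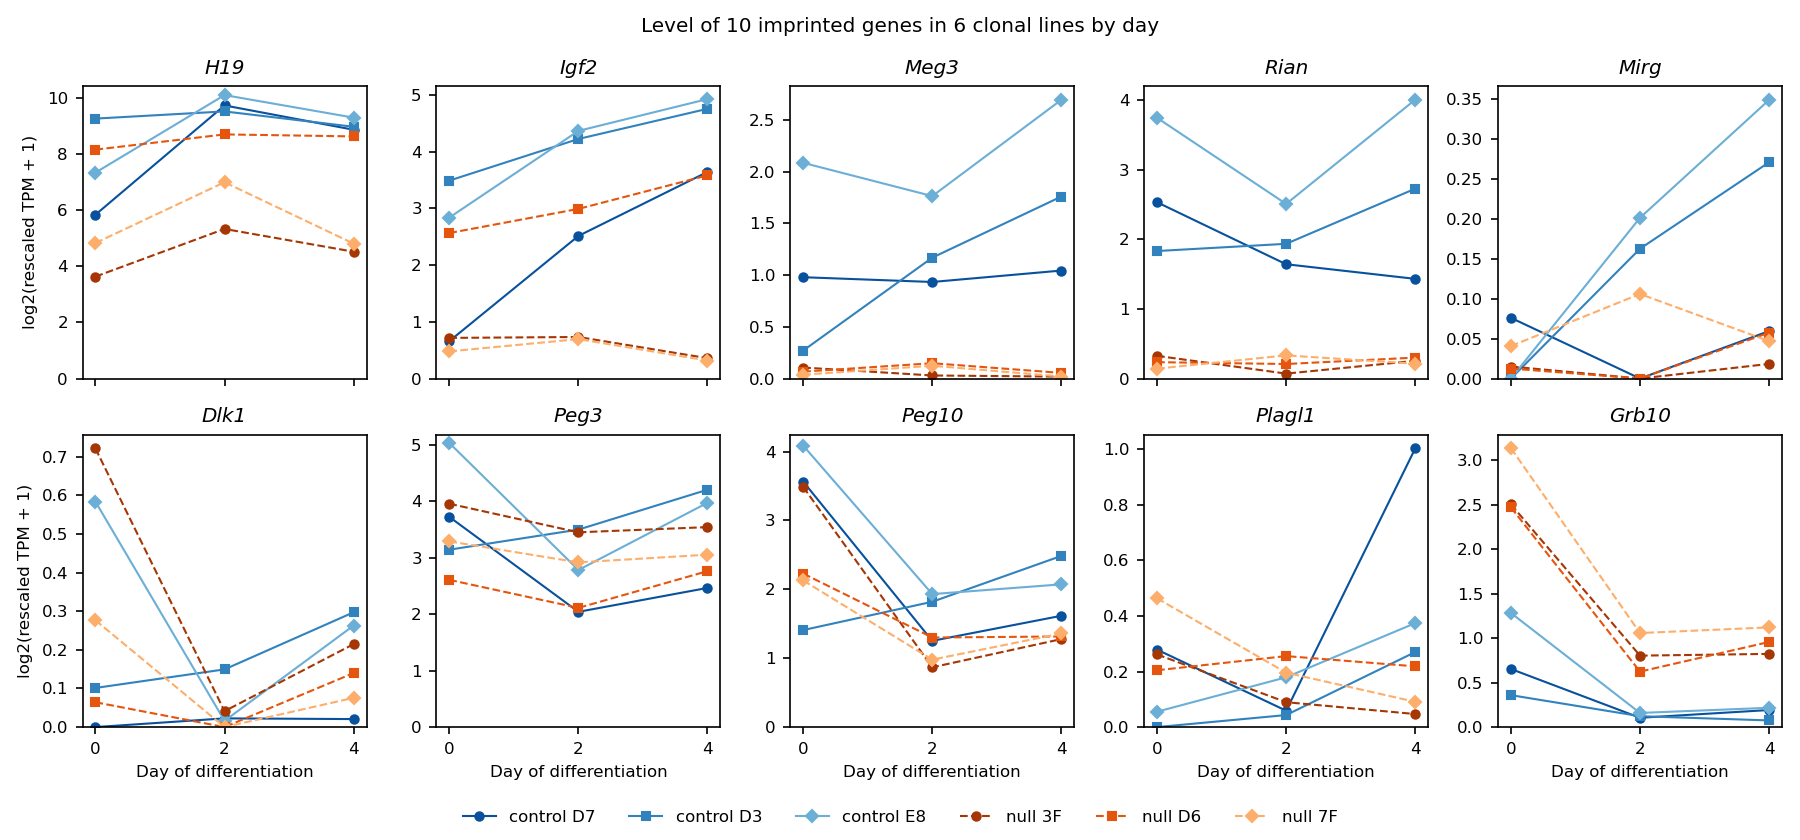
Level of each of the 10 genes as log2(rescaled TPM + 1) (vertical axis, a separate scale per gene) against the day of differentiation (0, 2, 4), with 1 line per clone, solid for control and dashed for null, each point 1 library. H19 and Igf2 were high in null D6 and low in null 3F and 7F, Meg3 and Rian were low in all 3 null clones, and Grb10 was above every control clone in all 3 null clones.

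The lines divided most clearly in the H19 and Igf2 domain, and the division ran through the null genotype. H19 in OPCs stood at 56.0, 610 and 160.1 rescaled TPM in control D7, D3 and E8, and at 11.4, 283 and 27.4 in null 3F, D6 and 7F. At DIV2 the control values were 845, 728 and 1090.5 and the null values 39.1, 413 and 126. At DIV4 they were 463, 498 and 625 in the control clones and 21.9, 393 and 26.9 in the null clones. Null D6 was thus the highest null clone at every stage and lay within the control range in OPCs, whereas 3F and 7F lay below every control clone at all 3 stages. H19 remained detected in all 6 clones, the weakest of them, 3F, having a mean over stages of 24.1.

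Igf2 showed the same division at lower levels. In OPCs it stood at 0.580, 10.2 and 6.16 in control D7, D3 and E8 and at 0.643, 4.92 and 0.394 in null 3F, D6 and 7F. At DIV2 the control values were 4.72, 17.7 and 19.6 and the null values 0.662, 6.95 and 0.619, and at DIV4 they were 11.5, 26.04 and 29.5 against 0.282, 10.99 and 0.246. Null D6 lay among or just under the control clones at each stage, and null 3F and 7F stayed under 1 throughout. Control D7, which had as little Igf2 as those null clones in OPCs, was above them at the later stages.

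Averaged over the 3 stages, H19 was 15.04-fold higher in null D6 (363) than in null 3F (24.1), and Igf2 was 18.2-fold higher in null D6 (7.62) than in null 7F (0.420). Among the control clones the extremes differed 1.38-fold for H19 (D7, 455 and E8, 625) and 3.29-fold for Igf2 (D7, 5.597 and E8, 18.4). Whether clones of the same genotype stayed apart across stages was tested with limma in a fit with genotype, stage and clone. Of the 7 tested genes, 2 differed, H19 (adjusted p = 0.0316) and Igf2 (adjusted p = 0.00328), where 2.98% of all tested genes did. The calls were lost with null D6 left out: without that clone limma gave an adjusted p of 0.625 for H19 and 0.0645 for Igf2. Without null 3F or 7F the H19 call was also lost (adjusted p = 0.176 and 0.0653), while Igf2 kept it (0.0221 and 0.0225). On deposited TPM Igf2 was called (adjusted p = 0.0346) and H19 was not (0.152), with 0.116% of all tested genes called.

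The 2 genes moved together over the lines. The correlation of their 6 clone means was 0.950, the highest for H19 among 773 genes compared, and it describes 6 points that share their libraries and scaling. The next most similar to H19 were Gm25747 (0.920) and Lars2 (0.913), and the most similar to Igf2 were S100a1 (0.977), 4922502B01Rik (0.964) and AA474408 (0.952). Neither of the nearest tested genes on the 2 sides of H19 and Igf2 was called between clones. For Mrpl23, 34.8 kb beyond H19, limma gave an adjusted p of 0.659 between clones of a genotype and 0.701 between genotypes. For Cd81, 386 kb beyond Igf2, the values were 0.411 between clones and 0.0389 between genotypes, with a change of -1.08.

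**Figure D2:**
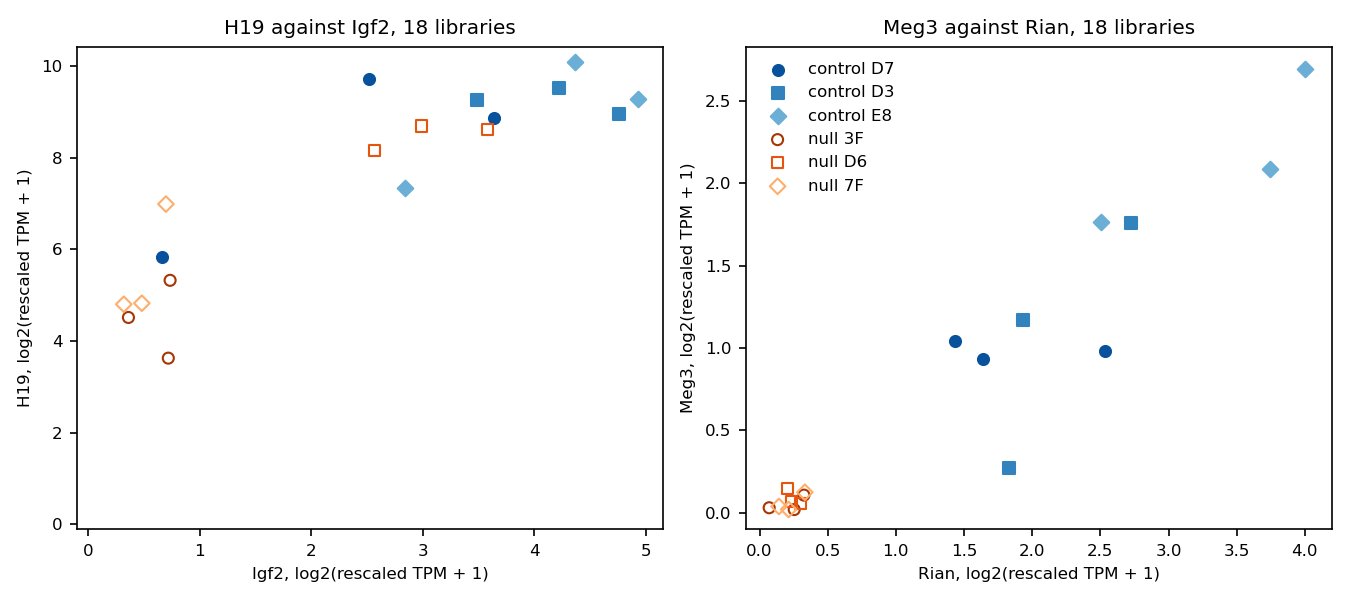
H19 against Igf2 (left) and Meg3 against Rian (right), both axes as log2(rescaled TPM + 1), for 18 libraries, filled symbols for control and open symbols for null. The null D6 libraries lie with the control libraries in the left panel and with the other null libraries in the right panel.

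With clones divided in this way, H19 was not called between genotypes at any stage. Null minus control was -1.94 ± 1.24 (SE) in OPCs, -2.77 ± 1.24 at DIV2 and -3.06 ± 1.24 at DIV4 on the log2 scale, with limma adjusted p = 0.324, 0.313 and 0.176. The 3 null libraries were below the 3 control libraries at DIV2 and DIV4, and overlapped them in OPCs, where the change on deposited TPM was 0.18. Groups that do not overlap, in either direction, were found in 25.8% of all tested genes in OPCs, 31% at DIV2 and 27.2% at DIV4. Without null D6 H19 was called lower in null at every stage (-3.25, -3.62 and -4.38, limma adjusted p = 0.0305, 0.0330 and 0.0130). Of all tested genes, 7.81, 2.60 and 3.21% were called without that clone. For Igf2 the changes were -1.08 ± 0.98, -2.23 ± 0.98 and -3.02 ± 0.98 (SE), with limma adjusted p = 0.498, 0.301 and 0.0891, and the groups were separate only at DIV4. In OPCs the Igf2 change on deposited TPM was 0.15. Without null D6 Igf2 was called lower in null at DIV4 (-4.11, limma adjusted p = 0.0142) and not in OPCs or at DIV2 (0.188 and 0.0641). Null D6 was the highest null clone for both genes, so leaving it out had to lower the null mean. No genotype difference is read from the calls without it.

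Igf2 transcripts from the start site shown above had clone means of 3.72, 10.97 and 10.8 in control D7, D3 and E8, 4.06 in null D6, and 0.219 and 0.190 in null 3F and 7F. As for the whole gene, null 3F and 7F were the lowest lines, and control D3 and E8 the highest. A further 30.8% of Igf2 TPM was assigned to a noncoding fragment near the 3′ end of the gene (ENSMUST00000163148), which ran from 0.104 in null 7F to 5.90 in control E8.

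Mesenchymal cells are a known source of H19 and Igf2 RNA. The summed level of 8 mesenchymal markers was 0.421 to 1.81 rescaled TPM over all 18 libraries, and 7 of the 8 were under 1 in every library. In the null OPC libraries the mesenchymal sum was 0.503 to 0.728. Whether such cells have a part in the H19 and Igf2 levels was not tested. In bulk RNA fewer cells of a type and less RNA per cell cannot be told apart, and this holds for every result here.

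In contrast to H19 and Igf2, Meg3 and Rian separated the genotypes, and were near 0 in all 3 null clones. Rian in OPCs was at 4.78, 2.56 and 12.4 in control D7, D3 and E8 and at 0.253, 0.177 and 0.104 in null 3F, D6 and 7F. The control values were 2.12, 2.82 and 4.68 at DIV2 and 1.70, 5.61 and 15.03 at DIV4, where the null values were 0.0502, 0.156 and 0.259, and 0.193, 0.232 and 0.159. Every null library was below every control library at each stage. Null D6, which kept H19 and Igf2, was as low in Rian as the other null clones.

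Meg3 in OPCs was at 0.972, 0.206 and 3.25 in control D7, D3 and E8 and at 0.0765, 0.0471 and 0.0262 in null 3F, D6 and 7F. The control values were 0.910, 1.25 and 2.40 at DIV2 and 1.06, 2.39 and 5.48 at DIV4, and the null values were 0.0207, 0.108 and 0.0896, and 0.0129, 0.0384 and 0.0134. The groups did not overlap at any stage, although the control D3 library in OPCs came near the null values. A null group below control at every stage without overlap was found in 1.68% of all tested genes. Both Meg3 and Rian passed the filter only through their control libraries.

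Rian was called lower in null in OPCs (-2.47 ± 0.52, SE, limma adjusted p = 0.00797), where Grb10 was the other gene of the 7 to be called and 12.5% of all tested genes were. At DIV4 Rian (-2.46 ± 0.52, adjusted p = 0.0161) and Meg3 (-1.80 ± 0.43, adjusted p = 0.0284) were lower in null by limma, 2 of 7, where 2.4% of all tested genes were called lower and 5.06% in either direction. Since these 2 genes passed the filter through the group in which they were high, nothing is read from that count. At DIV2 none of the 7 was called (limma, 2.84% of all tested genes), although 5 of them had an unadjusted p under 0.05. On the means of the 6 clones over all stages, Rian was lower (-2.25 ± 0.39, adjusted p = 0.0378) and Meg3 was not called (-1.34 ± 0.35, adjusted p = 0.0858), with Grb10 the other of 2 genes called by limma and 3.53% of all tested genes called.

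The Rian call in OPCs depended on the scaling, since on deposited TPM the change was -0.88 with a limma adjusted p of 0.158. It was also lost without null 7F (-2.42, adjusted p = 0.0764) and with only the 6 OPC libraries in the fit (adjusted p = 0.0818), and it was kept with no filter (adjusted p = 0.0242, limma). The DIV4 calls were kept on deposited TPM (Rian -2.96, adjusted p = 0.00769, Meg3 -2.31, adjusted p = 0.00941, limma). Neither was kept without null 3F, D6 or 7F, where the limma adjusted p was 0.112, 0.0686 and 0.137 for Rian and 0.161, 0.101 and 0.191 for Meg3, with changes of -2.44 to -2.49 and -1.80 to -1.81. With only the 6 DIV4 libraries neither was called (0.143 for Rian and 0.123 for Meg3), and with no filter Rian was called (0.0491) and Meg3 was not (0.0694). At DIV2 Rian was called with only the 6 libraries of that stage (adjusted p = 0.0281). Over all stages the Rian call was lost without control D3 (adjusted p = 0.0678), without any null clone (0.0759 to 0.157), with no filter (0.165) and with only DIV2 and DIV4 (0.0642).

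The summed OPC markers were also lower in null. The 8 of them summed to 482 to 607 rescaled TPM in the null and 685 to 961 in the control libraries in OPCs, 217 to 293 against 299 to 499 at DIV2, and 294 to 311 against 362 to 522 at DIV4, without overlap at any stage. Of single tested genes, 25.8, 31 and 27.2% did not overlap at these stages. Between genotypes limma called 1 of the 8 in OPCs (Cspg4, lower), 0 at DIV2, 1 at DIV4 (Olig1, lower) and 0 over all stages. Of all tested genes 12.5, 2.84, 5.06 and 3.53% were called, so few single markers were called and the OPC count equals the background. The oligodendrocyte marker sum was also lower in null at DIV2, 3117 to 3581 against 3628 to 6253, and overlapped at the other stages. The part of these markers in the genotype differences of Rian, Meg3 and Grb10 was not tested.

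The control clones also differed from each other in these 2 genes. Over the stages, Rian was 3.74-fold higher in E8 (10.7) than in D7 (2.86) and Meg3 3.78-fold higher in E8 (3.71) than in D7 (0.982). In the null clones the Rian means ran from 0.165 to 0.188, with single libraries from 0.0502 (3F, DIV2) to 0.259 (7F, DIV2). Values so near 0 cannot show whether the null clones differ. The clone test did not call either gene (limma adjusted p = 0.135 and 0.148). Meg3 and Rian were each other's most similar gene over the 6 clone means, with a correlation of 0.991. Psrc1 (0.988) followed for Meg3, and Trf (0.986) and Psrc1 (0.985) for Rian.

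The transcript values of Meg3 and Rian differed in the same direction. The 3 deposited Meg3 transcripts that begin at the start site shown above were listed at 0 in all 9 null libraries and ranged from 0.0414 to 3.27 in the 9 control libraries. Of the 11 Meg3 transcripts, 9 were listed at 0 in every null library and none in every control library, and nearly all of the Meg3 remaining in the null clones was a transcript that begins further downstream (ENSMUST00000146701, 0.0367 in 3F, 0.0613 in D6 and 0.0426 in 7F). For Rian, 7 of 17 transcripts were listed at 0 in every null library and 0 in every control library. The untested Plagl1 had 11 of 23 and 2, Mirg had 5 of 12 and 1, and Grb10 had 0 of 9 and 1. The share over all transcripts was not counted, and Meg3 and Rian passed the filter through their control libraries. Nothing is therefore read from these counts. These are estimates without a known depth, so a listed 0 does not give an upper limit.

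Mirg and Dlk1, the other genes of the Meg3 domain, were hardly present. Mirg was at most 0.273 (control E8, DIV4) and Dlk1 at most 0.649 (null 3F, OPC). The Mirg values at DIV4 were 0.0420, 0.206 and 0.273 in the control clones and 0.0128, 0.0405 and 0.0329 in the null clones, without overlap but with a narrow gap. Neither gene was tested. Of 2 further imprinted genes of this domain, Rtl1 had clone means up to 0.0641 and Dio3 up to 0.0101. The nearest tested genes outside the domain, Wars (559 kb before Dlk1) and Ppp2r5c (736 kb after Mirg), differed between clones of a genotype by limma (adjusted p = 0.0113 and 0.00543) and not between genotypes (0.225 and 0.165).

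Grb10 was the only one of the 7 tested genes that was higher in the null lines at every stage without overlap, a pattern found in 1.86% of all tested genes. In OPCs it was at 0.573, 0.283 and 1.43 in control D7, D3 and E8 and at 4.68, 4.55 and 7.81 in null 3F, D6 and 7F. At DIV2 the control values were 0.0753, 0.0886 and 0.117 and the null values 0.746, 0.541 and 1.08, and at DIV4 they were 0.142, 0.0533 and 0.162 against 0.770, 0.942 and 1.18. All 3 null clones were above all 3 control clones throughout, and Grb10 passed the filter only through its null OPC libraries. The clones of a genotype did not differ in the clone test (limma adjusted p = 0.512).

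Null minus control was 1.94 ± 0.25 (SE) in OPCs, with a limma adjusted p of 0.000373. On deposited TPM it was 2.50, where the median tested gene was 1.503 higher in null and 81.0% of all tested genes were called. With only the 6 OPC libraries in the fit the change on rescaled TPM was not called (limma adjusted p = 0.0509), and with no filter it was (0.000505). At DIV2 and DIV4, where levels were lower, the changes were 0.70 ± 0.25 and 0.81 ± 0.25 and were not called by limma (adjusted p = 0.187 and 0.0799), although with only the 6 libraries of the stage the change at DIV4 was (0.0463). Over all stages Grb10 was higher in null by 1.15 ± 0.20 (SE, limma adjusted p = 0.0378). That call was lost without control D3 (0.0736), control E8 (0.0596) or any of the null clones (0.0687 to 0.201), and also with no filter (0.106) or only DIV2 and DIV4 (0.0510). As Grb10 passed the filter through the null OPC libraries, where it was high, its calls are a description of these lines. Among Grb10 transcripts, those from the 2 start sites shown above had null clone means of 0.369 to 1.31 at the upstream and 0.265 to 0.607 at the downstream site, against control clone means of 0.0286 to 0.0833 and 0.0229 to 0.0714. A protein-coding transcript that begins further downstream (ENSMUST00000143915) carried 33.9% of the gene's TPM, with clone means of 0.836 to 1.02 in the null lines and at most 0.00835 in the control lines.

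**Figure D3:**
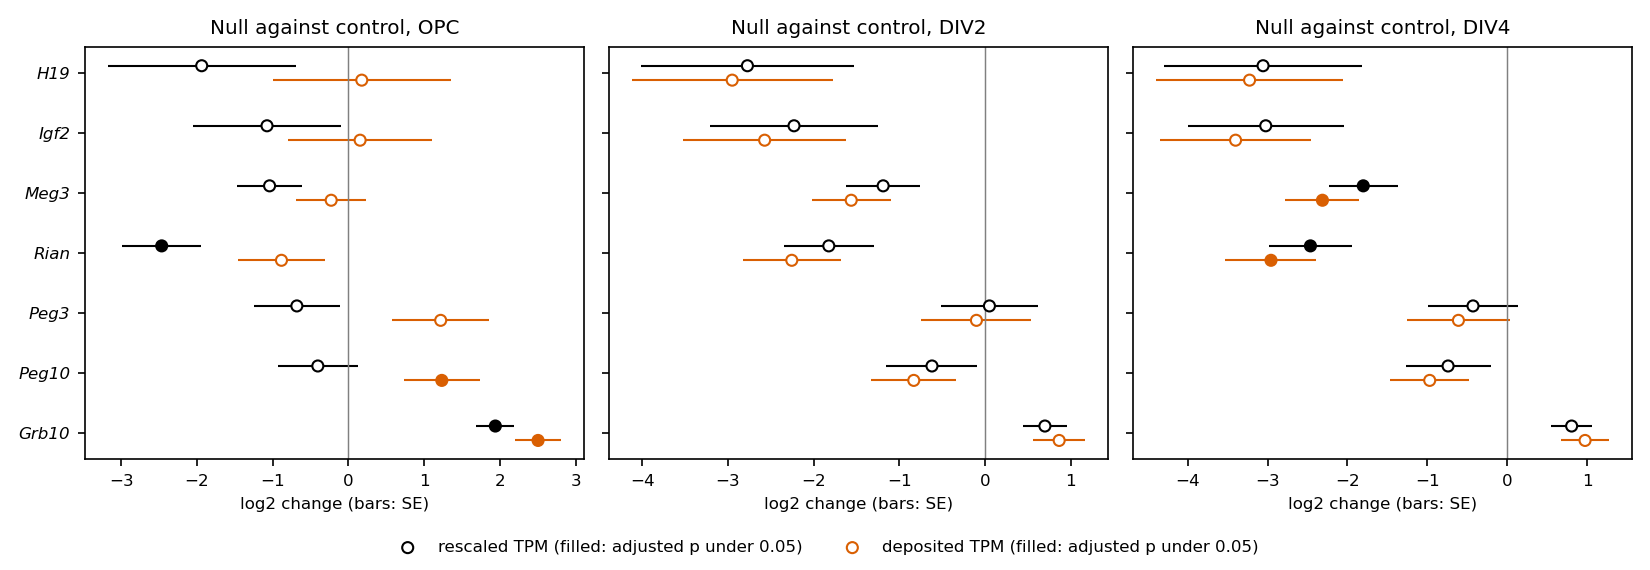
Null minus control as log2 change (horizontal axis, bars are standard errors) for the 7 tested genes at each stage, from rescaled TPM (black) and from deposited TPM (orange), filled where the limma adjusted p was under 0.05. Meg3, Rian and Grb10 kept their direction on both scales at every stage, while in OPCs H19, Igf2, Peg3 and Peg10 lay on opposite sides of 0 on the 2 scales.

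Grb10 fell during differentiation of the null clones, by 1.88 from OPC to DIV2 (SE 0.25, limma adjusted p = 0.000149) and by 1.74 from OPC to DIV4 (SE 0.25, adjusted p = 0.000154). In the null clones the other gene called from OPC to DIV2 was Peg10, making 2 of 7 that fell, where 15.6% of all tested genes fell and 28.6% were called in either direction. From OPC to DIV4 Grb10 was 1 of 7, where 17.4% fell and 33.6% were called. Grb10 passed the filter only through the null OPC libraries (mean 5.68), from which both falls start. Nothing is therefore read from these counts, and the falls of Grb10 are a description of these lines. From DIV2 to DIV4 none of the 7 was called in the null clones by limma (2.27% of all tested genes, none of the 7 with an unadjusted p under 0.05). In the control clones the difference of Grb10 between OPC and DIV2 was -0.64 on the log2 scale and was not called (limma adjusted p = 0.0630), but it was with the clone as a replicate block (adjusted p = 0.0409). On deposited TPM the change was 0.01.

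In the control clones none of the 7 genes was called by limma from OPC to DIV2, from OPC to DIV4 or from DIV2 to DIV4, where 35.3, 32.6 and 0.24% of all tested genes were, and 2, 2 and 0 of the 7 had an unadjusted p under 0.05. Since the 3 stages of a clone are the same line, the fit with the clone as a replicate block compares each line with itself. In that fit Igf2 rose by 1.37 ± 0.31 (SE) from OPC to DIV2 (limma adjusted p = 0.00644) and by 2.11 ± 0.31 to DIV4 (adjusted p = 0.000903), and it was higher at DIV4 than in OPCs in all 3 control clones. H19 rose from OPC to DIV2 by 2.30 ± 0.61 (SE, adjusted p = 0.0132), again in all 3 control clones, although the rise in D3 was small. Peg3 fell to DIV2 by 1.19 (SE 0.41, adjusted p = 0.0425), in D7 and E8 and not in D3, but on deposited TPM its change was 1.28. The rises of H19 and Igf2 to DIV2 were 5.10 and 3.28 on deposited TPM, where the median tested gene rose by 1.96.

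In the null clones Igf2 changed little with stage on average, by 0.22 ± 0.31 (SE) to DIV2 and 0.17 ± 0.31 to DIV4 in the fit with the replicate block (limma adjusted p = 0.630 and 0.711). In null D6 it went from 4.92 to 10.99 between OPC and DIV4, and in 3F and 7F from 0.643 to 0.282 and from 0.394 to 0.246. The change from OPC to DIV4 in null minus that in control was -1.95 ± 0.44 (SE, limma adjusted p = 0.0383) with the replicate block. Without the block it was not called (limma adjusted p = 0.461). With the block 4.36% of all tested genes were called for this difference. None of the 7 was called for this difference without the block, where 3.14% of all tested genes were, and 1 had an unadjusted p under 0.05.

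Peg10 was highest in OPCs in every line but control D3. It stood at 10.8, 1.65 and 16.0 in control D7, D3 and E8 and at 10.2, 3.69 and 3.37 in null 3F, D6 and 7F, and at DIV2 at 1.38, 2.53 and 2.81 against 0.825, 1.46 and 0.972. At DIV4 the values were 2.07, 4.60 and 3.21 against 1.42, 1.49 and 1.57, so that the null clones lay below the control clones at this stage. The fall from OPC to DIV2 in the null clones was 1.57 (limma adjusted p = 0.0396, 0.0548 with the replicate block), and it was not called without null 3F, D6 or 7F (adjusted p = 0.0992 to 0.342). In the control clones the change was -1.35 (adjusted p = 0.0607), 0.76 on deposited TPM, and -2.23 without control D3 (adjusted p = 0.00133), the line whose OPC library had few cell-cycle transcripts.

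Peg3 had the largest share of its variation between clones. Over the stages the control clones ran from 6.62 (D7) to 17.5 (E8) and the null clones from 4.74 (D6) to 11.7 (3F), and the genotypes overlapped at every stage. The share of its variation that lay between clones of a genotype, 43.0%, was above that of 94.3% of tested genes, but the clone test did not call it (limma adjusted p = 0.227). It did without control D3 (adjusted p = 0.0107). Null against control, Peg3 was not called at any stage by limma, with changes of -0.68, 0.05 and -0.43, the first of which was 1.22 on deposited TPM. Plagl1 reached 1.004 in control D7 at DIV4 and 0.379 or less in all other libraries; the former was the library with the highest oligodendrocyte marker sum. Whether that cell composition plays a part was not tested.

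**Figure D4:**
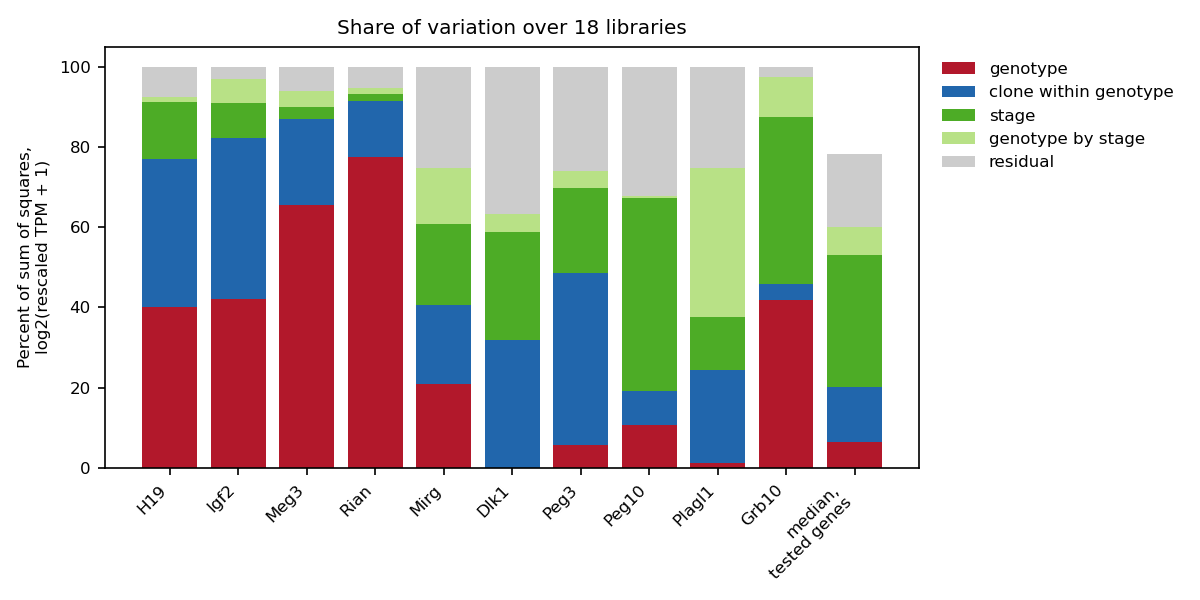
Percent of the sum of squares of log2(rescaled TPM + 1) over 18 libraries (vertical axis) that lay between genotypes, between clones of a genotype, between stages, in the genotype-by-stage term and in the residual, for each gene and for the median of the tested genes, whose medians need not add to 100. Rian and Meg3 have the largest genotype shares, Peg3, Igf2 and H19 the largest clone shares, and Peg10 the largest stage share.

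The division of the variation describes how clone and genotype were separated in these lines. For Rian 77.7% of the sum of squares lay between genotypes and 13.8% between clones of a genotype, and for Meg3 65.5 and 21.6%. H19 and Igf2 were split nearly evenly, with 40.1 and 42.1% between genotypes and 36.8 and 40.3% between clones. Grb10 had 42.0% between genotypes, 41.8% between stages and 3.84% between clones. For the median tested gene the shares were 6.39% for genotype, 13.8% for clone and 33.0% for stage. With 3 clones per genotype, a genotype share contains the chance differences between clones. Rian and Meg3 passed the filter only through their control libraries, and Grb10 only through its null OPC libraries. In the other genotype their levels were low, which leaves little room for its clones to differ. The shares of Rian, Meg3 and Grb10 are therefore a description of these lines. Nothing is read from setting them against the median tested gene.

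A line was called on for a gene where the median of its 3 libraries was at least 5 rescaled TPM and off where it was under 0.5. By this description 2 of the 10 genes, both among the 7 tested, were on in some lines and off in others, against 3.64% of all tested genes. Of these 2, Rian passed the filter only through its control libraries, so nothing is read from the count. Igf2 was on in control D3, control E8 and null D6 and off in null 7F, and the other lines lay between. Rian was on in control E8 and off in all 3 null lines. H19 was on in all 6 lines, Meg3 was off in the 3 null lines and never on, Grb10 was off in the 3 control lines and never on, and Mirg, Dlk1 and Plagl1 were off in all 6. When every library of a line had to meet the limit, no gene qualified. With limits of 1 and 0.1 the 2 genes were Meg3 and Grb10.

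The other imprinted genes, a list of 43 of which 37 were in the table and 21 tested, give the setting. In the clone test 1 of the 21 was called (2.98% of all tested genes), Ndn, which encodes the growth regulator necdin. The gene was listed at 0 in control D7, and its clone means were 8.51 and 0.892 in control D3 and E8 and 9.47 to 11.1 in the null clones (limma adjusted p = 0.00550), so that here control clones were the low ones. Over all stages 2 of the 21 were called, where 3.53% of all tested genes were, both higher in null: Zrsr1 (1.29 ± 0.23, SE, adjusted p = 0.0378) and Impact (0.62 ± 0.09, SE, adjusted p = 0.0258). At single stages the calls of null against control were 3 of 21 in OPCs (Impact and Ube3a higher and Trappc9 lower), 2 of 21 at DIV2 (Impact and Zrsr1, higher) and 1 of 21 at DIV4 (Zrsr1, higher). Over all tested genes the shares were 12.5, 2.84 and 5.06%, so that the OPC count is near the background. The list's median change over all stages was -0.02, and that of all tested genes -0.00018. Of the imprinted genes that adjoin the 10, Sgce beside Peg10 had clone means of 12.8 to 16.2, Usp29 and Zim1 beside Peg3 were under 1 in all 6 lines, and Cdkn1c beside Igf2 ran from 0.121 to 2.34. Igf2os, which overlaps Igf2, had clone means of 0.0111 to 0.308 and was not tested. Ddc, the imprinted gene next to Grb10, had clone means of 28.3, 7.59 and 11.6 in control D7, D3 and E8 and 3.16, 3.55 and 2.72 in null 3F, D6 and 7F. Its null clone means were the lower ones, the opposite of Grb10, but it was not called over all stages (-1.34 ± 0.27, SE, limma adjusted p = 0.0517).

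A list of 14 genes around the IGF pathway holds the ligand gene Igf1, receptors, IGF-binding proteins, adaptors and the RNA-binding proteins Igf2bp1, Igf2bp2 and Igf2bp3. Of these 10 were tested, and limma called none between genotypes at any stage, although 3 in OPCs, 2 at DIV2 and 2 at DIV4 had an unadjusted p under 0.05. The shares called over all tested genes at these stages are the 12.5, 2.84 and 5.06% given above. Between clones of a genotype 2 of the 10 were called (2.98% of all tested genes), the binding protein gene Igfbp2 (adjusted p = 0.00121) and the receptor adaptor gene Irs2 (adjusted p = 0.00511). Igfbp2 had clone means of 0.0943, 6.71 and 25.6 in control D7, D3 and E8 and 0.184, 1.91 and 0.930 in null 3F, D6 and 7F, so that control D7 was below all 3 null clones.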

How the data were processed

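The 18 RNA-seq libraries, 1 per clonal line and stage, were strand-specific and depleted of ribosomal RNA, per the labels' protocols. The authors deposited TPM values for 93666 Ensembl transcripts, and each deposited column sums to 1000000. The submitters' processing notes name STAR, Picard and mm10, while the quantifier and annotation are not given in the sources used here. TPM keeps no depth, so depth is unknown and precision rests on the 3 clones per genotype. Nothing states that the clones came from separate animals, so p-values of the group-mean and clone-mean fits rest on the spread between these lines. In the clone test, and in the stage changes fitted with the replicate block, the clone is a term of the fit. Their p-values rest on the spread left between libraries once group and clone are taken out.

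TPM were summed by gene name, with 25 names restored from dates, to 38046 genes (96.5% of transcripts matched GENCODE), and divided by median-of-ratios factors from 7757 genes. Tests used limma 3.58.1 in R 4.3.3 on log2(rescaled TPM + 1) with 6 group means, a mean-variance trend, genes with a mean of at least 1 (12479 genes), and Benjamini-Hochberg adjustment over all of them, called under 0.05. Genotype over all stages was fitted on 6 clone means, and clones of a genotype were compared with an F test. Libraries of the same clone correlated in their deviations from group means (mean 0.121, from -0.007 to 0.423), against -0.060 for different clones, and the labels tie them to the same line. The clone was therefore also fitted as a replicate block. Scripts were tested on simulated data. Tables used pandas 2.3.3 and Python 3.11.15. All 10 genes are named. Also named are the other imprinted genes called in the clone test and 6 chosen neighbours of the 10, and the genes most like a member over the 6 clone means, of which 1 is not reported here. Genes of a small count, Ddc and Igf2os were named after their values were seen. The members and lists were chosen with earlier results of these data known. Other settings for scaling, pseudocount, filter, trend, libraries and clones were tried.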

Additional observations from a re-analysis of the deposited data

Results flagged for a closer look

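Igf2 rose with stage in the control clones and, by less, in null D6, but not in null 3F and 7F, so the null clones were divided. Its change from OPC to DIV4 was 1.95 lower in null than in control on the log2 scale (-1.95 ± 0.44, SE, limma adjusted p = 0.0383 with the clone as a replicate block, and 0.461 without it). It was higher at DIV4 than in OPCs in 3 of 3 control clones (by 1.27 to 2.98) and in null D6 (1.02), and lower in null 3F and 7F (-0.36 and -0.16). This was singled out because the test of the difference itself passed with the replicate block, where 4.36% of all tested genes did.

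Meg3 was higher at DIV4 than in OPCs in all 3 control clones, by 0.06, 1.49 and 0.61 in D7, D3 and E8, and lower in all 3 null clones, by -0.09, -0.01 and -0.02 in 3F, D6 and 7F. The mean difference, null minus control, was -0.76. It was singled out because every clone of one genotype moved one way and every clone of the other the opposite way. The null values lay near 0 at both stages. The limma test of this difference gave an adjusted p of 0.520.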

How the results depend on the processing

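Of the values compared under the settings planned, 1058 kept direction and side of the threshold. A further 36 changed sign without being called, 53 became called, 39 lost the call and 5 reversed; under settings added after seeing the data these were 61, 9, 12, 9 and 7. Scaling mattered most, and the reversals came with deposited TPM: Rian from OPC to DIV2 in control (1.41) and null minus control in its change to DIV4 (-2.07), Peg3 to DIV2 (1.28) and DIV4 (2.09) in control and its difference (-1.83), Peg10 to DIV4 in control (1.20) and between genotypes in OPCs (1.23). The clone test called 2 of the genes, but 1 with deposited TPM, no filter or only DIV2 and DIV4 (1 with deposited TPM there, 0 with no filter there) and 0 to 3 with a clone left out. From OPC to DIV2 in control the count of 0 became 4 with deposited TPM, 1 with quantile normalization, a pseudocount of 0.1 or no trend, and 0 to 3 with a clone left out. To DIV4 it became 6 with deposited TPM, 1 under those same 3 settings, and 0 to 1 with a clone left out. The count for the difference between genotypes in that change went from 0 to 5 with deposited TPM. On deposited TPM 83.6% of all tested genes were called in control to DIV2, 88.1% to DIV4 and 73.5% for the difference. Between genotypes at DIV2, 0 became 1 with quantile normalization or only the 6 libraries compared, 2 with a pseudocount of 0.1, and 0 to 1 with a clone left out. At DIV4, 2 became 1 with no filter, 0 with a mean of at least 5, 1 with only 6 libraries, and 0 to 2. In OPCs, 2 became 0 with a mean of at least 5 or only 6 libraries, and 1 to 4. Over all stages, 2 became 0 with no filter, a mean of at least 5, or only DIV2 and DIV4 (0 also there with deposited TPM or no filter), and 0 to 2. In null from OPC to DIV2, 2 became 1 with deposited TPM or no filter, 0 with a mean of at least 5, and 1 to 2. To DIV4, 1 became 2 with quantile normalization or only 6 libraries, 0 with a mean of at least 5, and 1 to 2. The filter at 5 leaves Meg3, Rian, Peg10 and Grb10 untested. Genes on in some lines and off in others went from 2 to 0 when all 3 libraries had to meet the limit, and 1 to 2 with a clone left out. The cause of these shifts was not tested.

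With the clone as a replicate block, 4 genes were called from OPC to DIV2 in control and 1 to DIV4, where 39.4 and 36.7% of all tested genes were. For the difference between genotypes 1 was called (4.36% of all tested genes), and from OPC to DIV2 in null 1 (32.0%). No call between genotypes at a single stage changed. With deposited TPM and the replicate block the counts, in the same order, were 5, 6, 7 and 1. The shares of all tested genes were then 84.3, 88.7, 75.0 and 17.2%. Depth limits are unknown.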

Other observations

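Beyond the genes described, Snurf, an imprinted gene of the Ndn region, was off in null 7F and on in control D7, control D3 and null 3F, with clone means from 1.495 in null 7F to 23.2 in control D7. Igf2r, the receptor that clears IGF2, had clone means of 3.73 to 4.56 in control and 5.42 to 11.3 in null, and was not called over all stages (0.80, limma adjusted p = 0.118). Of the 37 other imprinted genes in the table, 2 were on in some lines and off in others, Ndn and Snurf. Both are among the 21 that were tested, and the share over all tested genes was 3.64%.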
